A study of Mus musculus with 20 samples.

Results

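Voltage-gated and potassium channel genes were examined in ribosome-bound RNA from a precipitation aimed at tanycytes. These are the elongated glial cells that line the floor of the third ventricle. The 103 genes were chosen by symbol from 13845 genes in the deposited comparison tables, as every gene whose name begins with Kcn, Scn followed by a digit, Cacn or Hcn followed by a digit, together with Abcc8. Of the 103, 101 passed the filter on low counts for the comparison of diets and 99 for that of genotypes. Of these, 4 stood only in the table of diets, Abcc8, Kcnh1 and Kcnj6 among them, and Kcnn4 and Kcnj8 only in that of genotypes. Abcc9, also named by the rule, stood in neither and is described only by its level. The genes comprised 23 pore-forming Kv subunits, 7 modifier Kv subunits, 11 Kv accessory genes, 12 inward rectifiers, 7 calcium- or sodium-activated potassium channel genes, 7 K2P (tandem-pore) channels, 11 sodium channel genes, 20 calcium channel genes, 4 HCN channels and 1 sulfonylurea receptor gene.

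Most voltage-gated channels, HCN channels excepted, open when the membrane depolarizes. Sodium channels carry the upstroke of the action potential, calcium channels couple it to transmitter release and Kv channels end it, and each is a pore protein with auxiliary subunits that set its trafficking and gating. Glial cells rely on other members: Kir4.1 (Kcnj10) clears potassium from around neurons, and Nax (Scn7a) is a sodium channel relative that senses extracellular sodium in glia of the circumventricular organs rather than firing spikes. KATP channels join an inward rectifier pore (Kcnj8 or Kcnj11) to a sulfonylurea receptor (Abcc8 or Abcc9) and close when ATP is abundant, by which some cells sense glucose.

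Translating ribosome affinity purification was used, in which ribosomes bearing a GFP-tagged L10a protein are precipitated for sequencing, next to an unprecipitated aliquot of each lysate, the input. Every mouse carried 1 copy of the tagged L10a behind a stop that Cre removes, and received AAV-Dio2-Cre in the lateral ventricle at 12 weeks, so that the Dio2 promoter decided which cells were tagged. The 3 NCD control pools (normal chow, 9% of calories from fat) and the 4 HFD control pools (60% of calories from fat, begun at about 4 weeks of age) were IR wt/wt. The 3 IR∆Tan pools were IR fl/fl on chow, in which the same Cre deletes the insulin receptor. Arcuate nucleus and median eminence of both sexes were taken 4 weeks after injection and 4 to 7 hypothalami were pooled per replicate (5 to 7 by another account of the submitters). Control samples are labelled IRmKate2 in the genotype field and IR wt/wt in the series description, and HFD feeding is given as 8 weeks there although the stated ages imply 12. Both fractions of the 10 pools were sequenced, which gave 20 libraries.

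Total counts were 29500000 to 59400000 per library, of which the most abundant entry took 8.11% to 8.91% in the immunoprecipitations of HFD controls and 15.1% to 21.2% in all other libraries. Insr, the targeted gene, had 52.1, 53.6 and 50.5 CPM in NCD control immunoprecipitations and 18.9, 13.2 and 21.0 in those of IR∆Tan mice. CPM are counts scaled to a common library size after TMM normalization over all 20 libraries. In NCD controls, 17 of 20 tanycyte markers and 10 of 10 ependymal markers exceeded their input level in the immunoprecipitation. The median log2 fold change was 2.834 for the tanycyte and 5.575 for the ependymal markers, so the precipitated RNA was not of tanycytes alone. Of the neuron markers 13 of 14 were lower, and all 10 oligodendrocyte, 4 of 5 oligodendrocyte precursor, 9 of 9 tested microglial and 6 of 10 astrocyte markers were lower as well. Of the choroid plexus markers 4 of 6 were higher, of the 4 tested endothelial markers 1 was higher, of the 4 tested anterior pituitary markers 2 were higher and 1 lower, and of the 6 tested mural cell markers 2 were higher and 2 lower.

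The 300 bases around the annotated start of 3 genes are shown first, because these genes mark the extremes of what follows: Scn7a and Kcnmb1 were the abundant channel genes most concentrated on tagged ribosomes, and Scn1a, which lies near Scn7a, was among the most depleted. The sequences run from 250 bases before to 50 after the start, from RefSeq on GRCm38.p6, and capitals mark matches on either strand to GGGCGG (GC box), CCAAT or TATAAA.
Scn7a, chr2:66784861-66785160, minus strand: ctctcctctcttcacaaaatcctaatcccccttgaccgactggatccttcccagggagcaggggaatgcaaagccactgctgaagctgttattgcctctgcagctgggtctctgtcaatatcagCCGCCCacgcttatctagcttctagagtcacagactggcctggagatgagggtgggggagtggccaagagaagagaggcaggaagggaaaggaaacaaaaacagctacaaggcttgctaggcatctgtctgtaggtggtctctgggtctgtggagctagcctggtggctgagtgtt
Kcnmb1, chr11:33962763-33963062, plus strand: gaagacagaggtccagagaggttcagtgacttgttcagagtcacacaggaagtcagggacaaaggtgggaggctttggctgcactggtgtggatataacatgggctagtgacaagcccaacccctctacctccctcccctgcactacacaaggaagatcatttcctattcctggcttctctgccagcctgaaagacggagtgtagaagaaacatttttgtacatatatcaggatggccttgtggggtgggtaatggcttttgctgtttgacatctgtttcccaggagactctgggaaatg
Scn1a, chr2:66440788-66441087, minus strand: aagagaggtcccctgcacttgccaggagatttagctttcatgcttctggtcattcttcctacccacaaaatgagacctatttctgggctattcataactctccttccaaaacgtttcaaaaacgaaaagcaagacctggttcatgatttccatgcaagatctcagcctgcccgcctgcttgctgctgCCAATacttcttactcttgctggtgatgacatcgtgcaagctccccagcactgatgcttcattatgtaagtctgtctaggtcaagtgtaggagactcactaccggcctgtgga
The Scn7a window held CCGCCC, the reverse complement of GGGCGG, the Scn1a window held CCAAT and the Kcnmb1 window none of the motifs. Over all 32851 windows of the reference, GGGCGG was found in 35.7%, CCAAT in 37.4% and TATAAA in 13.6%. Of the 103 channel genes, 74 had 105 windows there, of which 47.6%, 29.5% and 4.76% held these motifs. The median window of a channel gene had 59.7% G and C against 52.7% over all windows, whereas Scn7a had 54.0%, Kcnmb1 49.7% and Scn1a 47.3%.

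Per kilobase of exon, Kcnj10 was the most abundant of the channel genes in both fractions of NCD controls, at 28.9 CPM per kb in the immunoprecipitation and 84.8 in the input. The K channel interacting protein gene Kcnip4 followed in the immunoprecipitation (24.0) and then Scn2b, a sodium channel β subunit (23.9), and Cacng7, an auxiliary subunit of AMPA receptors (20.6). Scn7a stood at 12.3 CPM per kb, rank 18 of 103 in the immunoprecipitation against rank 79 in the input. For Kcnmb1 the ranks were 39 and 99. Exonic length is the union of all annotated exons, so genes with many rare exons are placed too low on this scale.

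Most channel genes were lower in the tanycyte immunoprecipitation than in the surrounding tissue. In NCD controls, 69 of 99 were lower, where 33.0% of all genes tested were lower, and 10 were higher, against 34.1% of all genes. The median log2 fold change of the channel genes was -0.87, against 0.01 over all genes. In IR∆Tan mice 71 were lower (32.8% of all genes) and 9 higher (34.3%), and in HFD controls 52 of 101 were lower (26.5%) and 9 higher (27.9%), with medians of -0.96 and -0.33. The 3 mouse groups are compared in separate libraries here, although every fit also drew its spread and scaling from NCD control libraries. Of 97 channel genes tested in all 3, 45 were lower in each group (46.4%, and 17.5% of all 13390 genes) and 5 were higher in each (5.15%, against 18.5%), namely Scn7a, Kcnmb1, Scn9a, Kcnj5 and Cacnb1. Calls were by edgeR at an adjusted p of 0.05. Without NCD control pool 1 only 3 genes were called higher in NCD controls (Scn7a, Kcnmb1 and Kcne1l), beside 64 lower, against 30.1% and 29.2% of all genes. Without HFD pool 3 there were 5 higher and 44 lower in HFD controls, against 22.7% and 22.9% of all genes. Scaled by library totals, HFD controls had 15 higher and 38 lower, against 35.0% and 20.2% of all genes. A fit to every gene counted gave 15 higher and 36 lower, against 27.1% and 22.9% of all genes.

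**Figure D1:**
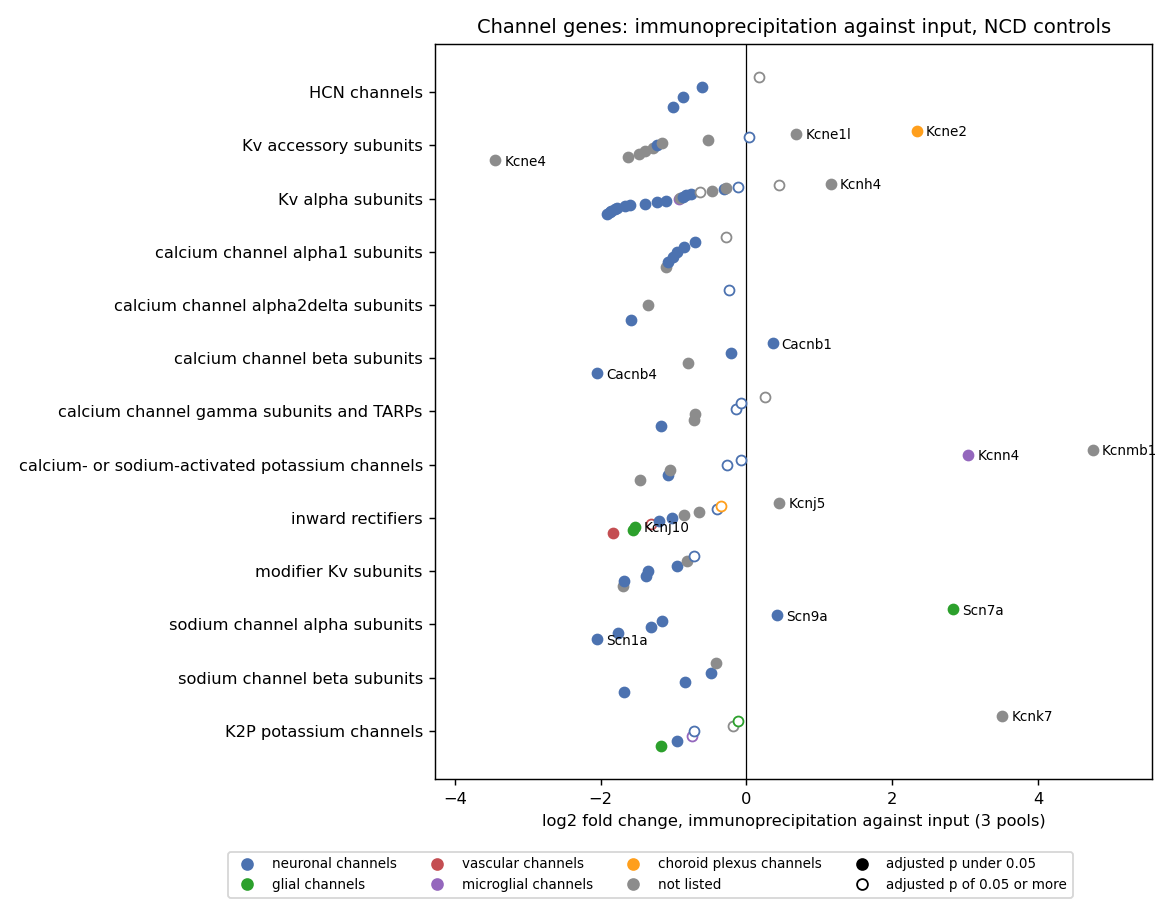
Log2 fold change of each tested channel gene between immunoprecipitation and input in 3 pools of NCD controls, by family, with filled points for an adjusted p under 0.05 and colours for the list a gene was placed in. Most points lie left of 0, with Kcnmb1 at 4.75 and Scn7a at 2.84 far to the right.

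Of 54 tested neuronal channel genes, 42 were lower in the immunoprecipitation of NCD controls and 2, Scn9a and Cacnb1, were higher. By family, 18 of 22 pore-forming Kv genes, 6 of 7 modifier Kv genes, 8 of 11 Kv accessory genes, 6 of 7 calcium channel α1 genes, 3 of 4 HCN genes, all 4 sodium channel β genes and 7 of 11 inward rectifiers were lower. Of 7 calcium- or sodium-activated potassium channel genes 3 were lower and 2 higher, of 7 K2P genes 2 were lower and 1 higher, of 6 sodium channel α genes 4 were lower and 2 higher, and of 4 calcium channel β genes 3 were lower and 1 higher. Of the calcium channel γ and α2δ genes, 3 of 6 and 2 of 3 were lower. The neuron marker list summed to 5634 to 6804 CPM in those immunoprecipitations and 16925 to 18214 in the inputs. In tissue of mixed cells, fewer cells of a type and less RNA per cell cannot be told apart.

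Scn1a, which encodes the Nav1.1 pore of fast-spiking neurons, had 84.4, 57.8 and 89.8 CPM in the immunoprecipitations of NCD controls and 332, 318 and 329.5 in their inputs. Every input was more than 3 times every immunoprecipitation, with a log2 difference of -2.05 (SE 0.14, adjusted p = 3.38e-08). Cacnb4, a calcium channel β subunit, fell as far, from 503, 498 and 547 CPM in the inputs to 126, 97.6 and 143 in the immunoprecipitations, a change of -2.05. Next in depletion among genes past 5 CPM were Kcnh7, an ERG-type channel (-1.92), Kcnb2, a delayed rectifier (-1.88), Kcna1, an axonal Kv1 pore (-1.86), and Kcnj2, the strong inward rectifier Kir2.1 (-1.83). In IR∆Tan mice these were -2.14 for Scn1a, -1.98 for Cacnb4, -1.83 for Kcnh7, -1.48 for Kcnb2, -2.15 for Kcna1 and -1.25 for Kcnj2.

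The 5 sodium channel pore genes of chromosome 2 divided into both patterns within 1328 kb. In GRCm38 they are Scn3a (65457118 to 65567627, minus strand), Scn2a (65620771 to 65767447, plus), Scn1a (66270778 to 66440840, minus), Scn9a (66480080 to 66634962, minus) and Scn7a (66673425 to 66784914, minus). The first 3 are the brain channels Nav1.3, Nav1.2 and Nav1.1, and were lower in the immunoprecipitation, with log2 differences of -1.15, -1.31 and -2.05. Scn7a had 95.7, 93.9 and 80.6 CPM in the immunoprecipitations of NCD controls and 13.4, 13.4 and 11.6 in the inputs. The lowest immunoprecipitation was about 6 times the highest input, with a log2 difference of 2.84 (SE 0.27, adjusted p = 5.98e-07). It was 2.99 (SE 0.27, adjusted p = 3.56e-07) in IR∆Tan mice and 2.94 (SE 0.22, adjusted p = 5.78e-08) in HFD controls.

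Scn7a also stands in the tanycyte marker list, and its pools varied more in the other mouse groups. IR∆Tan immunoprecipitations had 109, 61.7 and 168 CPM and those of HFD controls 93.6, 57.8, 74.4 and 141. Scn9a, the Nav1.7 pore known from sensory neurons, had 61.3, 70.7 and 44.3 CPM in the immunoprecipitations of NCD controls and 46.8, 49.2 and 38.2 in their inputs. These groups overlapped, and the change of 0.42 (SE 0.15, adjusted p = 0.0217) was not called without NCD control pool 1 (0.0799) or pool 2 (0.0782, adjusted p). In HFD controls the immunoprecipitations had 70.5, 48.8, 70.3 and 82.5 CPM and the inputs 36.6, 34.4, 38.1 and 35.1, without overlap, and the change was 0.91 (SE 0.15, adjusted p = 0.000162).

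**Figure D2:**
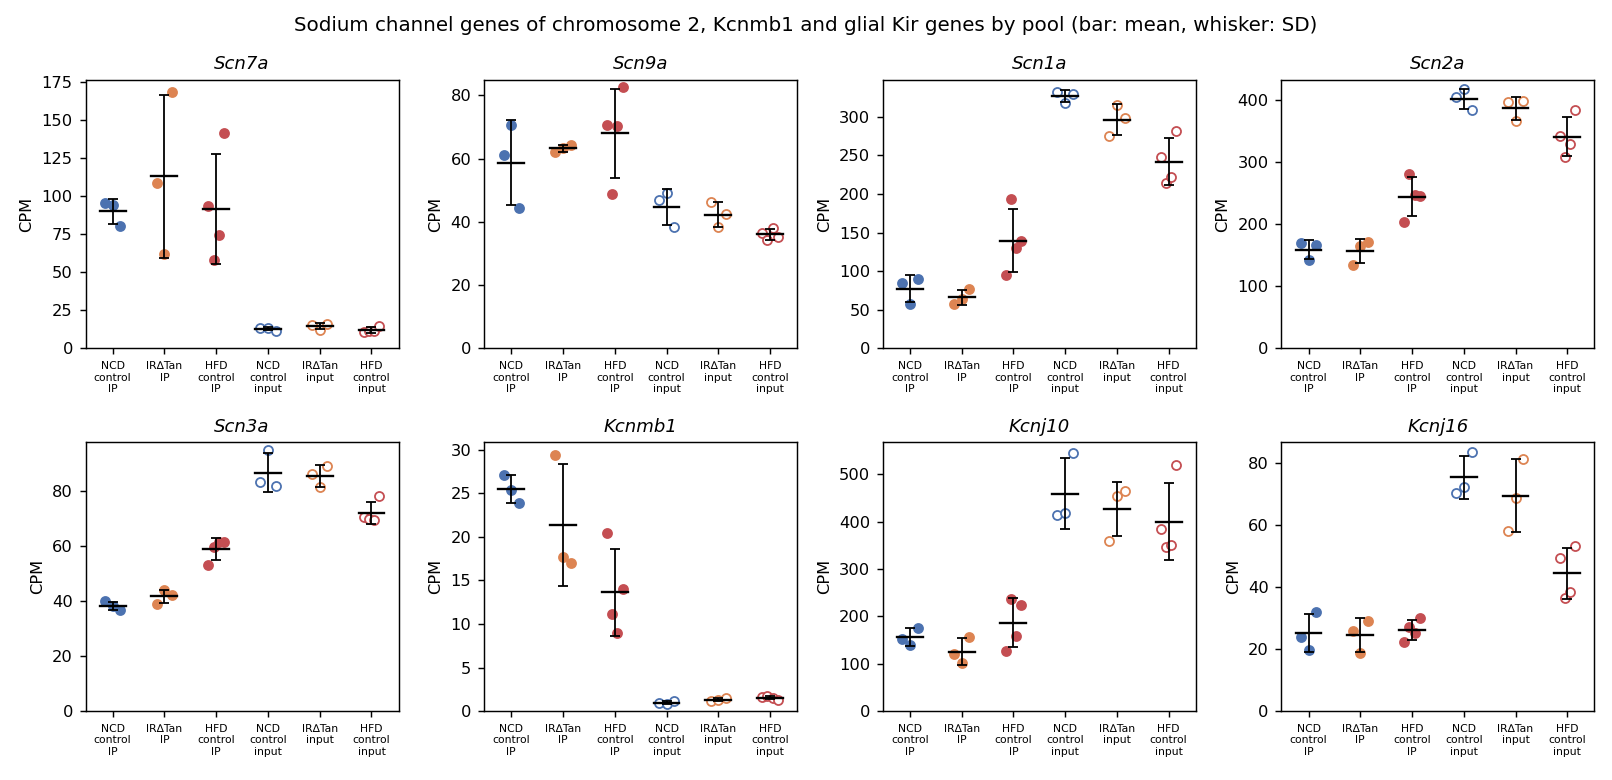
CPM of the 5 sodium channel genes of chromosome 2, of Kcnmb1 and of the glial inward rectifiers Kcnj10 and Kcnj16 in every pool, with filled points for immunoprecipitations (IP), open points for inputs, bars for means and whiskers for the SD. Kcnmb1 is near 0 in the inputs, Scn7a is lower there than in the immunoprecipitations, and Scn1a, Scn2a, Scn3a, Kcnj10 and Kcnj16 are higher there than in the immunoprecipitations of the same mouse group.

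Kcnmb1, the β1 subunit that sensitizes BK channels to calcium and is known from smooth muscle, had the largest enrichment. It had 27.1, 25.3 and 23.9 CPM in the immunoprecipitations of NCD controls and 0.878, 0.868 and 1.14 in the inputs, a log2 difference of 4.75 (SE 0.24, adjusted p = 2.58e-09). The pore that it joins, Kcnma1, went the other way (-1.46, SE 0.10, adjusted p = 3.03e-08), with 60.6, 50.3 and 54.5 CPM in the immunoprecipitations and 152, 149.5 and 161 in the inputs. The neuronal β4 subunit gene Kcnmb4 was not called (-0.08, SE 0.15, adjusted p = 0.673). Kcnmb1 lies at 33963013 to 33973641 on the plus strand of chromosome 11, within the span of Kcnip1 on the minus strand but with no exon overlap, and Kcnip1 was lower in the immunoprecipitation (-0.52).

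Smooth muscle actin (Acta2) and Tagln, which stand in the mural cell list, were also concentrated in the immunoprecipitation. Acta2 had 61.2, 111 and 76.3 CPM in the immunoprecipitations of NCD controls and 1.21, 2.52 and 1.14 in the inputs, and Tagln 14.5, 32.6 and 16.4 and 0.549, 0.789 and 1.49. The mural list, which includes Kcnj8 and Abcc9, summed to 111 to 166 CPM in those immunoprecipitations and 74.7 to 91.5 in the inputs. Acta2 and Tagln, with means of 82.8 and 21.2 CPM in the immunoprecipitations, made up most of that sum. Every other marker of the list had a lower mean there than in the inputs. Of these, the pericyte genes Rgs5 and Vtn were called lower (-1.54 and -1.17). Whether cells with Acta2 had a part in the Kcnmb1 level was not tested. The values of Acta2 and Tagln were looked up after those of Kcnmb1 were known.

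The other genes called higher in NCD controls changed by less or were rare. Cacnb1, a calcium channel β subunit, changed by 0.36 and Kcnj5, the Girk4 inward rectifier, by 0.45, and neither was called without NCD control pool 1 (adjusted p = 0.138 and 0.07), nor was Cacnb1 without pool 3 (adjusted p = 0.0651). Kcne1l, an accessory Kv subunit, changed by 0.68 (SE 0.19, adjusted p = 0.00649), but not with a trend on transcript length removed (0.12, adjusted p = 0.618) or without NCD control pool 2 (adjusted p = 0.0586). Kcnn4, Kcnk7, Kcnh4 and Kcne2 had means of 0.857, 0.468, 1.49 and 1.20 CPM in these immunoprecipitations, and were called higher there as well, Kcne2 not with the length trend removed (adjusted p = 0.098). Kcna5, the Kv1.5 pore, was higher in IR∆Tan mice (1.29, SE 0.33, adjusted p = 0.00342) and in HFD controls (0.94, SE 0.20, adjusted p = 0.00126), and had 0.45 (adjusted p = 0.243) in NCD controls.

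Channel genes known from glia did not move together. Of the 5 measured, Scn7a alone was called higher in the NCD control immunoprecipitation, whereas Kcnj10, Kcnj16 (Kir5.1, its partner) and Kcnk1 (a weakly rectifying K2P channel) were lower and Kcnk2 (the mechanosensitive TREK-1) was not called. Kcnj10 had 152, 139.8 and 176 CPM in the immunoprecipitations and 414, 418 and 545 in the inputs, a change of -1.53 (SE 0.16, adjusted p = 1.34e-06). Kcnj16 had 24.0, 19.8 and 31.9 and 70.4, 72.4 and 83.5, a change of -1.55 (SE 0.18, adjusted p = 5.07e-06). Kcnk1 changed by -1.17 and Kcnk2 by -0.11 (adjusted p = 0.376). The astrocyte list summed to 2699 to 2833 CPM in the immunoprecipitations and 4402 to 5152 in the inputs.

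The KATP genes were among the less abundant channel genes. Kcnj8, the Kir6.1 pore of vascular cells, had 0.725, 0.00 and 0.222 CPM in NCD control immunoprecipitations and 1.10, 0.670 and 0.627 in the inputs, with overlap and no call in NCD controls (-1.30, SE 0.82, adjusted p = 0.174). In IR∆Tan mice it had 0.237, 0.160 and 0.0682 against 0.977, 0.705 and 0.953, a change of -2.41 (SE 0.88, adjusted p = 0.0265) that was not called without any of the IR∆Tan pools in turn (adjusted p 0.0749 to 0.14). Its partner Abcc9 had 0.751, 0.709 and 1.39 CPM in NCD control immunoprecipitations and 4.72, 5.92 and 4.70 in the inputs, without overlap and not tested. Kcnj11, the Kir6.2 pore, had 2.16 ± 0.331 and 2.90 ± 0.498 (SD, n = 3), with no call (-0.40, adjusted p = 0.219). Abcc8, its receptor SUR1, had 2.93, 2.44 and 2.61 and 6.33, 6.62 and 6.23 and was not tested in this comparison.

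Of the channel genes known from microglia, Kcna3, the Kv1.3 pore, was lower (-0.92, SE 0.22, adjusted p = 0.00209), Kcnk6, a K2P channel, was not called (-0.74, adjusted p = 0.21) and Kcnn4, the intermediate-conductance KCa3.1, was higher (3.05, SE 0.84, adjusted p = 0.00551). Kcnn4 had 1.22, 0.604 and 0.750 CPM in the immunoprecipitations and 0.110, 0.118 and 0.0784 in the inputs, so that the groups did not overlap, and microglial markers summed to 59.2 to 66.5 and 197 to 264. Its call was lost without NCD control pool 1 (adjusted p = 0.0501). The choroid plexus genes varied from pool to pool. Kcnj13, the Kir7.1 pore, had 0.634, 6.28, 1.70 and 4.35 CPM in the immunoprecipitations of HFD controls and Kcne2 had 0.00, 1.42, 0.0774 and 1.46, while the choroid plexus marker list, which includes Kcnj13, summed to 45.2 to 602. About 49.1% of the exonic bases of Kcnj13 overlap exons of Gigyf2 on the other strand, and reads of both cannot be told apart without strand.

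On HFD, channel genes rose in the immunoprecipitation. Of 101 tested, 60 were higher than in NCD controls, where 25.7% of all genes tested were higher, and 5 were lower, against 26.4% of all genes. The median log2 fold change of the channel genes was 0.42 and that of all genes -0.04. Their summed level was 3769 to 4339 CPM in the immunoprecipitations of NCD controls and 4855 to 6353 in those of HFD controls, without overlap. In the inputs it was 8854 to 9241 in NCD controls and 7313 to 8754 in HFD controls, again without overlap but in the other direction. The immunoprecipitations of HFD controls thereby lay nearer to the level of the tissue. Inputs of IR∆Tan mice, also on chow, had 8305, 8851 and 8788 CPM, the lowest of which lay within the range of the HFD inputs. Scaling by library totals, which moves the median of all genes to -0.15, left 48 higher and 7 lower, against 20.3% and 33.2% of all genes. With libraries of the immunoprecipitation alone in the fit, 48 were higher and 2 lower, against 20.4% and 18.2%. With a trend on transcript length removed, 48 were higher and 6 lower, against 23.3% and 26.9%.

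**Figure D3:**
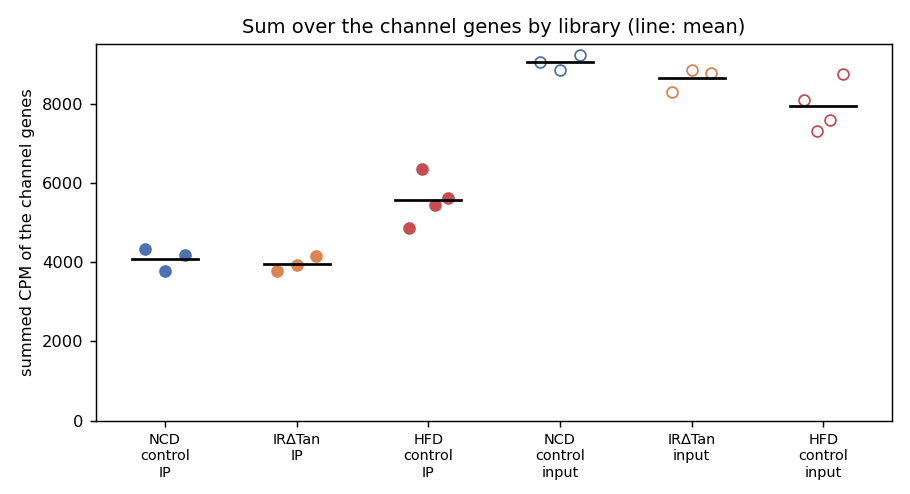
Sum of the CPM of the 103 channel genes in each of the 20 libraries, with filled points for immunoprecipitations (IP), open points for inputs and lines for means. Immunoprecipitations on chow lie between 3769 and 4339 CPM for controls and those on HFD between 4855 and 6353.

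Markers of other cells moved with these genes. In the immunoprecipitations all 14 neuron markers rose on HFD, and the list summed to 5634 to 6804 CPM on chow and 9569 to 11818 on HFD. Of 9 tested microglial markers 7 rose, as did 6 of 10 oligodendrocyte, 4 of 5 oligodendrocyte precursor and 3 of 10 astrocyte markers, with 1 astrocyte marker lower. Of the mural markers 1 of 5 rose, of the choroid plexus markers 1 rose and 1 fell of 6, and 1 of 3 endothelial and 1 of 4 anterior pituitary markers fell. Of the tanycyte markers 10 of 20 fell, with a sum of 3291 to 3636 CPM on chow and 1520.2 to 2757 on HFD, and 9 of 10 ependymal markers fell. In the inputs the neuron list summed to 16925 to 18214 CPM on chow and 16716 to 17534 on HFD. None of these lists had a marker at 0 in all immunoprecipitations of NCD or of HFD controls. The part of these shifts in the channel result was not tested.

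The shares differed with where a gene is concentrated, judged by IR∆Tan immunoprecipitations against their inputs. The diet comparison does not use these libraries, but the fit behind the IR∆Tan calls also drew its spread and scaling from NCD control libraries. Of 70 channel genes lower in the IR∆Tan immunoprecipitation than in its input, 50 rose on HFD (71.4%) and 2 fell, with a median of 0.51, while of all 4409 genes of that kind 50.2% rose and 9.98% fell, with a median of 0.30. Of the 8 channel genes higher there, 2 rose and 2 fell, with a median of 0.10, and of all 4601 such genes 6.39% rose and 49.8% fell, with a median of -0.41. Of the 19 without a call 5 rose and 1 fell.

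Of the 57 neuronal channel genes 41 rose and 2 fell, with a median of 0.50, and of 34 genes in no list 17 rose and 3 fell. Among the Kv genes, 16 of 23 pore-forming subunits rose and none fell. Kcna4, the A-type Kv1.4 pore, had 15.1, 16.6 and 21.3 CPM on chow and 28.5, 47.0, 38.4 and 35.8 on HFD, without overlap, a log2 difference of 1.08 (SE 0.15, adjusted p = 5.03e-05). Kcnb2 rose from 28.6, 16.5 and 22.1 to 38.2, 51.0, 54.1 and 43.7 (1.06, SE 0.16, adjusted p = 0.000113). Smaller rises were those of Kcna6 (0.78), for which 39.6% of exonic bases overlap an antisense gene, Kcnh7 (0.79), Kcnh5 (0.96), Kcna5 (0.75) and Kcna2 (0.65), the last not called without NCD control pool 2 (adjusted p = 0.0591) or with the length trend removed (0.35, adjusted p = 0.0721). Kcnq3, a pore of the M current that restrains repetitive firing, had 0.24 (adjusted p = 0.0724) and was not called. The small rises of Kcna1 (0.41) and Kcnc1 (0.27), a pore of fast-spiking cells, were not called once single pools were left out (adjusted p up to 0.172 without NCD control pool 1 for Kcna1 and up to 0.0967 without NCD control pool 3 for Kcnc1), nor with the length trend removed (adjusted p = 0.0609 and 0.649).

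Of the 7 modifier Kv genes, whose products form no channel alone, 6 rose. Kcng3 had 2.36, 1.21 and 1.14 CPM on chow and 2.31, 4.63, 3.91 and 4.27 on HFD, with overlap, and changed by 1.26 (SE 0.29, adjusted p = 0.00199). Kcng1 (1.15) and Kcnf1 (0.85) rose as well. Of the 11 accessory Kv genes 6 rose and 2 fell. Kcnab2, a cytoplasmic β subunit of Kv1 channels, had 44.8, 31.3 and 57.0 CPM on chow and 80.6, 134, 101 and 107 on HFD, every HFD pool above every chow pool, a change of 1.25 (SE 0.18, adjusted p = 6.56e-05). The related Kcnab3 changed by 0.92 and Kcnab1 by 0.74.

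**Figure D4:**
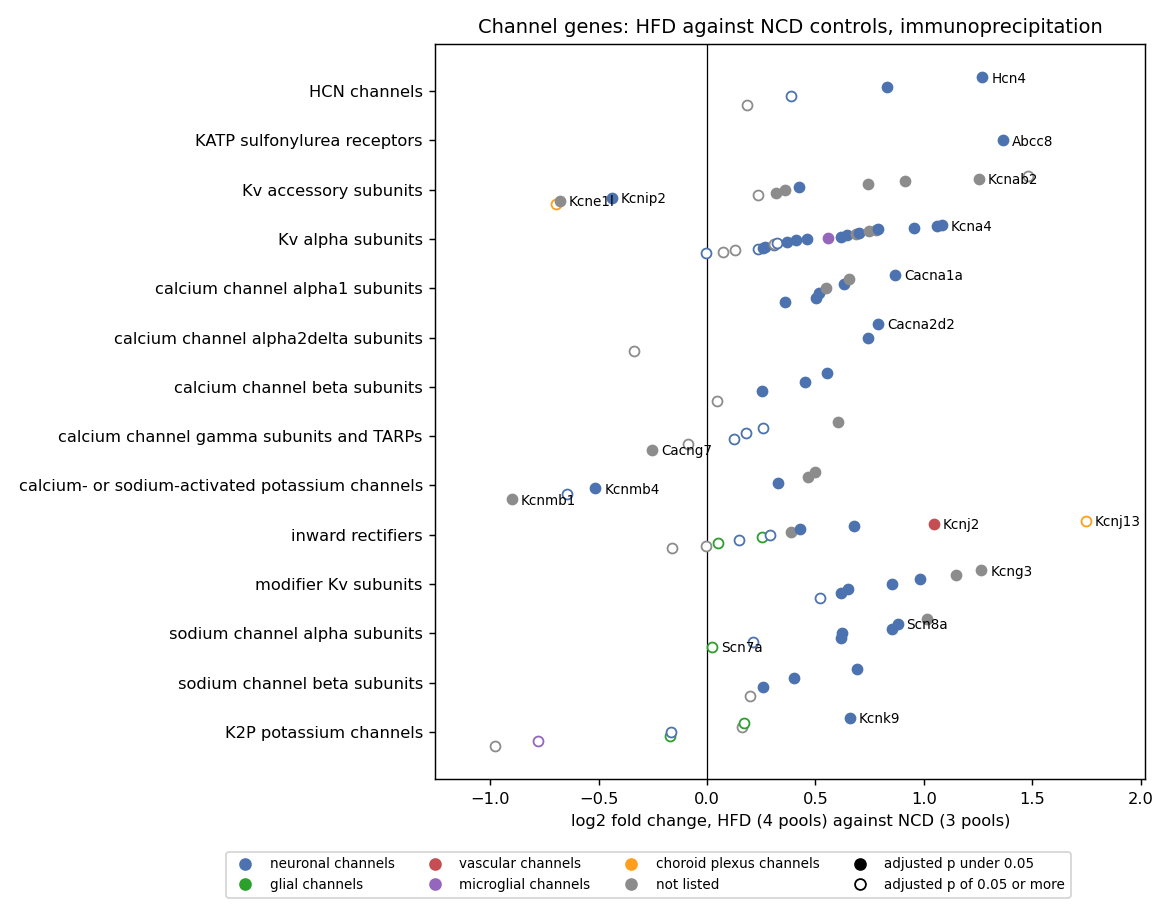
Log2 fold change of each tested channel gene in the immunoprecipitation between 4 pools of HFD controls and 3 of NCD controls, by family, with filled points for an adjusted p under 0.05. Of the 101 genes, 85 lie right of 0, and Kcnmb1, Kcne1l, Kcnip2, Kcnmb4 and Cacng7 are the filled points to the left.

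All 7 calcium channel α1 genes were called higher on HFD, of which only Cacna1a and Cacna1h were called with the length trend removed. Cacna1a, the P/Q-type pore of presynaptic terminals, had 31.9, 26.2 and 33.9 CPM on chow and 44.5, 64.4, 57.1 and 58.1 on HFD, without overlap, a change of 0.87 (SE 0.12, adjusted p = 4.54e-05). Cacna1e, the R-type pore, changed by 0.63 (0.13 with the length trend removed, adjusted p = 0.177), and Cacna1b, the N-type pore, by 0.36, which was not called without NCD control pool 3 (adjusted p = 0.144) or without HFD pool 2, 3 or 4 (up to 0.0985). With the length trend removed Cacna1b had 0.12 (adjusted p = 0.364). The α2δ genes Cacna2d1 (0.74) and Cacna2d2 (0.79), whose products bind gabapentin, rose, and Cacna2d4 did not (-0.34, adjusted p = 0.0665). Of the β genes, Cacnb1 (0.45), Cacnb3 (0.25) and Cacnb4 (0.55) rose. Of the 6 γ genes, whose products mostly serve AMPA receptors, Cacng5 rose (0.60) and Cacng7 fell.

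Of the 7 sodium channel pore genes 5 rose. Scn1a had 95.0, 194, 130.1 and 139 CPM on HFD, against the chow values above, without overlap, and changed by 0.85 (SE 0.20, adjusted p = 0.00224). Scn2a changed by 0.62, Scn3a by 0.62 and Scn8a, the Nav1.6 pore of axon initial segments, by 0.88. Of the genes higher in the immunoprecipitation, Scn7a changed by 0.02 (SE 0.21, adjusted p = 0.932), its HFD pools spanning the chow pools, and Scn9a by 0.21 (adjusted p = 0.298). Of the β subunits Scn2b (0.26), Scn3b (0.40) and Scn4b (0.69) rose. The call of Scn2b was lost when HFD pool 3 was left out (adjusted p = 0.0545), and that of Scn4b without NCD control pool 1 or 2 or HFD pool 2, 3 or 4 (0.0763 to 0.185), and with the length trend removed (0.0604).

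The largest called rise was that of Abcc8, the sulfonylurea receptor of neuronal and pancreatic KATP channels. It had 2.93, 2.44 and 2.61 CPM on chow and 5.78, 7.63, 6.38 and 7.64 on HFD, so that the lowest HFD pool was nearly 2 times the highest chow pool, a change of 1.36 (SE 0.15, adjusted p = 1.21e-05). Its pore gene Kcnj11, which lies beside it on chromosome 7, had 2.15, 1.84 and 2.50 and 2.57, 3.11, 1.90 and 1.98 CPM, with overlap and no call (0.15, adjusted p = 0.622). The other pair was low on both diets, with 0.149, 0.380, 0.541 and 0.198 CPM for Kcnj8 and 1.16, 1.73, 1.55 and 2.10 for Abcc9 on HFD. In the inputs Abcc8 had 6.40 ± 0.204 (SD, n = 3) on chow and 6.55 ± 0.408 (SD, n = 4) on HFD, a difference of 0.03 (SE 0.14, adjusted p = 0.919).

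Hcn4, the slow pacemaker channel, followed with 11.6, 6.30 and 8.11 CPM on chow and 28.2, 19.1, 18.6 and 17.8 on HFD, a change of 1.27 (SE 0.23, adjusted p = 0.000388). Hcn2 and Hcn3 had 0.39 and 0.19 (adjusted p = 0.0869 and 0.241). Of 11 inward rectifiers 4 rose, among them the neuronal Girk2 gene Kcnj6 (0.68). Kcnj2 had 6.19, 2.57 and 6.31 CPM on chow and 9.06, 11.6, 10.9 and 9.97 on HFD, without overlap, a change of 1.05 (SE 0.22, adjusted p = 0.00141). None of the 5 glial channel genes was called: Kcnj10 had 0.26 (SE 0.20, adjusted p = 0.295), Kcnj16 0.05, Kcnk1 0.17 and Kcnk2 -0.17. Of the K2P genes only Kcnk9, the acid-sensitive TASK-3, was called (0.66, SE 0.15, adjusted p = 0.00225, and 0.0526 as adjusted p with the length trend removed), and Kcnk6 had -0.78 (adjusted p = 0.0868). Of the microglial genes Kcna3 rose (0.56), though not without HFD pool 3 or NCD control pool 2 or 3 (adjusted p = 0.0655, 0.0802 and 0.08). Kcnj13 (1.75) and Kcne2 (-0.70) were not called, with standard errors of 0.84 and 0.96.

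**Figure D5:**
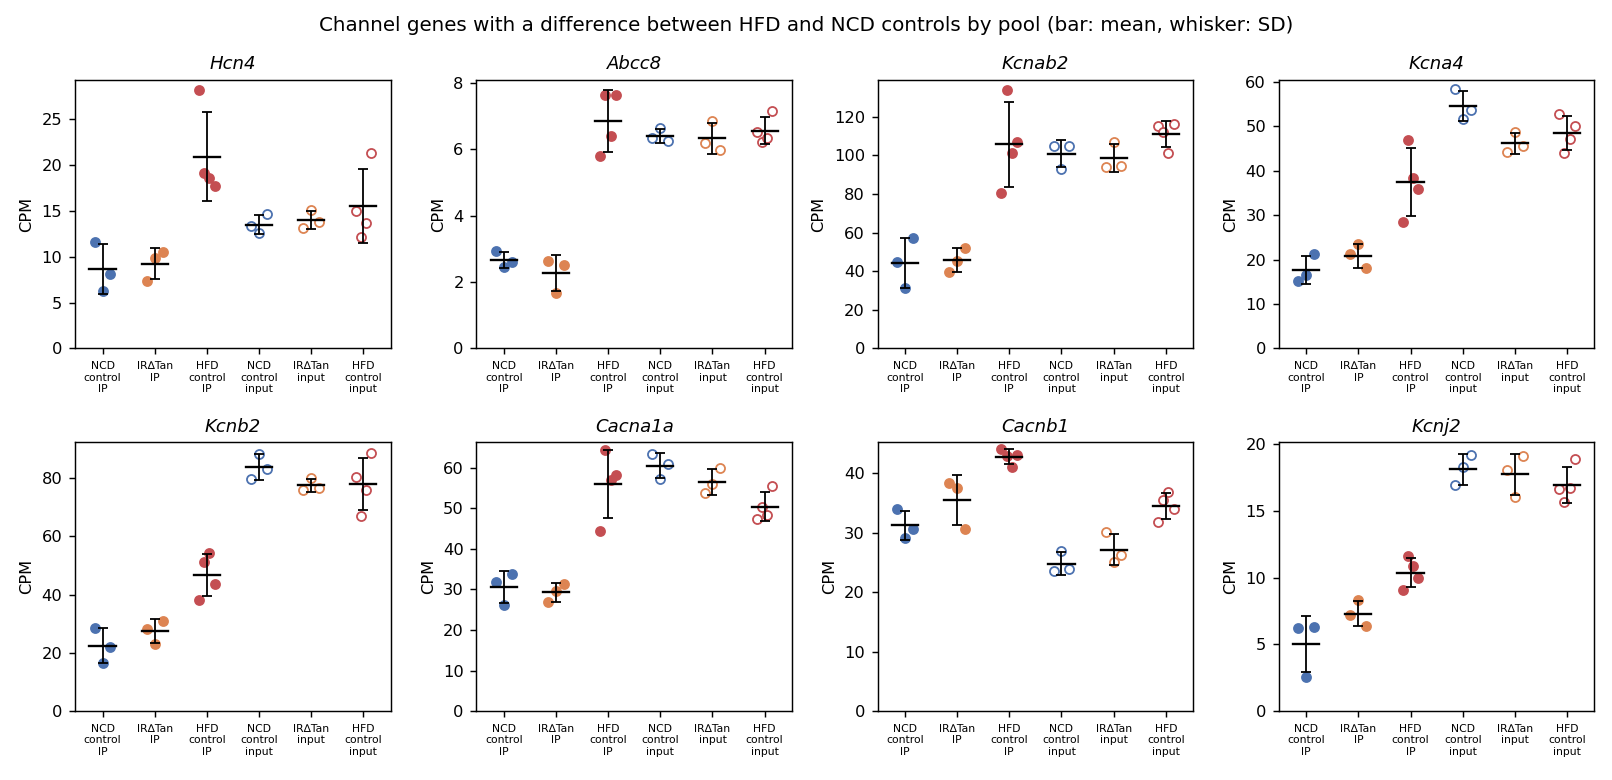
CPM of 8 channel genes in every pool, with filled points for immunoprecipitations (IP), open points for inputs, bars for means and whiskers for the SD. Hcn4, Abcc8, Kcnab2, Kcna4, Kcnb2, Cacna1a, Cacnb1 and Kcnj2 are higher in every HFD than in every NCD control immunoprecipitation, and Cacnb1 is also higher on HFD in the inputs.

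A total of 5 channel genes fell on HFD in the immunoprecipitation. Kcnmb1 went from 27.1, 25.3 and 23.9 CPM on chow to 20.4, 11.1, 8.94 and 14.1, every HFD pool below every chow pool, a change of -0.90 (SE 0.21, adjusted p = 0.0022), and remained enriched over the input on HFD (3.14, SE 0.23, adjusted p = 4.49e-08). Its pore gene Kcnma1 rose (0.50, SE 0.11, adjusted p = 0.0016), but not with the length trend removed (0.11, adjusted p = 0.262). Kcnmb4 fell from 9.92, 11.2 and 12.1 to 9.21, 6.83, 7.04 and 7.95 (-0.52, SE 0.14, adjusted p = 0.00547), with 20.8% of its exonic bases overlapped by an antisense transcript. Acta2 had 149, 26.8, 45.5 and 47.3 CPM on HFD against 61.2, 111 and 76.3 on chow, with overlap (-0.30, adjusted p = 0.571), and Tagln had 29.4, 3.42, 25.3 and 6.29 against 14.5, 32.6 and 16.4 (-0.40, adjusted p = 0.564, all by edgeR). Of 6 tested calcium- or sodium-activated potassium channel genes, 3 rose and these 2 fell.

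The other 3 falls were not called when certain pools were left out. Kcne1l had -0.68 (SE 0.21, adjusted p = 0.0142), with adjusted p = 0.0849 without NCD control pool 2 and 0.15 with the length trend removed. Kcnip2, a calcium-binding partner of Kv4 channels, had -0.44 (SE 0.13, adjusted p = 0.0125), with 0.0518 and 0.0792 without NCD control pool 2 or 3. Cacng7 had -0.25 (SE 0.09, adjusted p = 0.0351), with adjusted p from 0.0514 to 0.149 without HFD pool 3 or 4 or NCD control pool 2 or 3, and 0.392 with the length trend removed.

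In the input, few channel genes differed by diet. Of 101, 4 were higher on HFD (6.28% of all genes) and 7 lower (5.41% of all genes), with a median of -0.11. The higher ones included Cacnb1, Cacng7 and Cacnb3, and the lower ones Kcnj16, Kcnf1, Kcnt1, Cacna1e, Kcnn3 and Scn3a. When inputs alone were fitted, 10 were higher and 26 lower, against 16.8% and 14.3% of all genes. Of these 26, 20 were from the neuronal list, as were 4 of the 10 higher and 57 of the 100 genes tested in that fit. Without HFD pool 3 there were 3 higher and 1 lower, against 4.14% and 1.37% of all genes. Without NCD control pool 1 there were 2 and 3 (3.49% and 2.75% of all genes). Without pool 2 there were 2 and 4 (3.57% and 3.18%), and without pool 3 there were 2 and 3 (2.91% and 1.61%).

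Cacnb1 went from 23.6, 27.0 and 23.9 CPM in the inputs on chow to 31.8, 35.5, 36.8 and 33.9 on HFD, without overlap (0.48, SE 0.08, adjusted p = 0.00245), as in the immunoprecipitation. Kcnj16 fell from 70.4, 72.4 and 83.5 to 49.5, 36.6, 38.6 and 53.4 CPM, also without overlap (-0.76, SE 0.16, adjusted p = 0.00774), while its partner Kcnj10 had -0.20 (adjusted p = 0.566). Cacnb1 and Kcnj16 were called in every fit that left out a pool. Kcnt1, a sodium-activated potassium channel, fell by 0.45 on the log2 scale, and was not called when HFD pool 3 was left out (adjusted p = 0.0804). Cacnb3 (0.22), Cacng7 (0.34), Kcnf1 (-0.56), Cacna1e (-0.40), Scn3a (-0.27) and Kcnn3, the SK3 pore (-0.34), were each not called without 2 or more of the 7 pools.

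The change on HFD differed between the fractions for 55 channel genes. It was more positive in the immunoprecipitation for 51, where 21.8% of all genes were, and more negative for 4, where 18.4% were, by the interaction term of the same fit. The 4 were Kcnmb1, Kcne1l, Kcnip2 and Cacng7, of which Kcne1l and Cacng7 were not called with the length trend removed (adjusted p = 0.492 and 0.0892). Scn1a moved in opposite directions, by 0.85 in the immunoprecipitation and -0.43 in the input, a difference of 1.28 (SE 0.27, adjusted p = 0.00201). For Kcnf1 the difference was 1.42 (SE 0.22, adjusted p = 0.000268) and for Abcc8 1.33 (SE 0.21, adjusted p = 0.000307). Of the glial genes Kcnj16 alone differed (0.82, SE 0.23, adjusted p = 0.0113), having fallen in the input only.

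Loss of the insulin receptor in the tagged cells left nearly all genes without a call by edgeR, every channel gene included. Of 99 tested in the immunoprecipitation none was called by edgeR, where 0.0592% of all genes were, and 17 had an unadjusted p under 0.05, as did 13.7% of all genes. In the input none was called either (0.0074% of all genes), and 1, Cacnb3, had an unadjusted p under 0.05, as did 1.36% of all genes. DESeq2 called 4 in the immunoprecipitation, Cacng3 as higher and Kcnab3, Kcna1 and Kcnc1 as lower, and none in the input. Of all genes in the immunoprecipitation DESeq2 called 0.688% higher and 1.07% lower. The 4 were also those of smallest p in edgeR among the channel genes. The median of the channel genes was -0.04 in the immunoprecipitation and -0.03 in the input.

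Kcnab3, a Kv1 β subunit, had 9.25, 8.77 and 12.6 CPM in NCD control immunoprecipitations and 4.58, 4.85 and 6.85 in those of IR∆Tan mice, without overlap, a difference of -0.91 (SE 0.19, adjusted p = 0.0824) by edgeR and an adjusted p of 0.00159 by DESeq2. Cacng3, an auxiliary subunit of AMPA receptors, had 33.9, 24.7 and 38.5 and 45.0, 52.7 and 47.7 (0.58, SE 0.13, adjusted p = 0.098 by edgeR). Kcna1 had 58.98, 63.5 and 78.1 and 48.2, 44.9 and 50.4 (-0.48, SE 0.11, adjusted p = 0.115). Kcnc1 had -0.25 (adjusted p = 0.171) and Scn7a, whose IR∆Tan pools spanned the controls, 0.32 (SE 0.24, adjusted p = 0.596). For Kcnab3, Cacng3, Kcna1 and Kcnc1 the groups did not overlap, which their choice by smallest p favours. How often groups of other genes did not overlap is not given here. None of these genes was called by edgeR in any fit that left out a pool.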

How the data were processed

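RNA of immunoprecipitations and inputs was amplified with random and poly(T) primers and sequenced as paired reads by the authors, who quantified genes on GRCm38.p6 with Salmon 0.14.1 inside nf-core rnaseq 1.4. The authors deposited the resulting estimated counts (the submitters' processing notes also name STAR and DESeq2 1.30.0). The estimated counts cover 44674 genes, 28% of values are not whole, and strand is not stated. The 2 deposited tables of comparisons hold log2 fold changes, adjusted p-values and a mark for tanycyte genes, and only their gene names were used, the study having kept protein-coding genes above a TPM minimum. Counts were rounded to whole numbers, filtered at a minimum count of 10 and scaled by TMM, and edgeR 4.0.16 (R 4.3.3, quasi-likelihood) was fitted over 13558 (diet, 14 libraries) or 13520 genes (genotype, 12 libraries), with a mean per group and fraction, using Benjamini-Hochberg adjustment across every gene tested and a threshold of 0.05. The spread is shared by both fractions. The fits were also run on simulated counts, in which immunoprecipitation and input shared the same mean for most genes. Since the fractions differ widely in the data, that run does not test the calls reported here. Annotation was GENCODE M21.

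The members and lists were chosen with earlier results of these data known, and channel and marker lists were written from general knowledge. Named were the genes of the glial, vascular, microglial, choroid plexus and KATP lists, per comparison and direction the 6 largest called changes past 5 CPM without overlap, the 2 smallest p per family on HFD, the 10 most abundant genes, the 4 smallest p for genotype and genes in counts of 5 or fewer. Another 9 members, such as Scn4b and Kcnip1, were named after their values were seen. Results for some members are not reported here. The comparison within IR∆Tan mice was added after the data were seen. Both fractions of a pool were taken, by their replicate number, to be from the same lysate. Their deviations from group means correlated over 0.1 in 9 of 10 pools (0.021 to 0.319). For IR∆Tan pool 1 and HFD pools 2 and 4, however, another input of the same mouse group correlated more. Alternatives were DESeq2 1.42.0, other scalings, filters and gene sets, other sets of libraries, a block for pool or pool number, removal of a trend on exonic length, and each pool left out. Pools are separate animals, and p-values measure the spread between pools. Genes of few counts have larger errors.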

Additional observations from a re-analysis of the deposited data

Results flagged for a closer look

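The change on HFD differed between immunoprecipitation and input for 39 of the 69 channel genes examined singly. Calls were by the interaction term of edgeR at an adjusted p of 0.05. Some of the 69 were picked for large changes on HFD or for this difference, which raises the count. Of all 101 channel genes tested, 51 were more positive in the immunoprecipitation and 4 more negative, against 21.8% and 18.4% of all genes. On the log2 scale, immunoprecipitation minus input, 15 genes differed most: Kcng3 1.62, Kcnf1 1.42, Kcnh5 1.37, Abcc8 1.33, Scn1a 1.28, Kcna4 1.25, Kcnb2 1.16, Kcnj2 1.14, Cacna1a 1.13, Scn8a 1.13, Kcnab2 1.11, Kcnh7 1.10, Hcn4 1.07, Kcnab3 1.03 and Cacna1e 1.03. For 20 more the difference was Kcna2 0.99, Cacna2d1 0.96, Kcnk9 0.94, Kcnj6 0.89, Scn3a 0.89, Kcnab1 0.86, Scn2a 0.86, Kcnma1 0.82, Kcnj16 0.82, Kcnn3 0.80, Cacnb4 0.80, Kcnt1 0.78, Kcna1 0.78, Cacna1b 0.73, Kcna6 0.67, Cacng5 0.67, Cacna2d2 0.55, Kcnip4 0.48, Kcnc1 0.42 and Scn3b 0.38. It was negative for 4: Kcnmb1 -1.58, Kcne1l -0.81, Kcnip2 -0.63 and Cacng7 -0.59.

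Single pools stood apart in the groups of 4, where chance marks about 1 group in 20, and 5 of 138 groups tested were marked. In the immunoprecipitations of HFD controls, pool 1 had 28.2 CPM of Hcn4, above the 17.8 to 19.1 of the others, and 12.3 CPM of Kcnf1, below the 19.9 to 20.7 of the others. In the inputs of HFD controls, pool 4 had 78.1 CPM of Scn3a, above 69.6 to 70.7, and 14.6 CPM of Scn7a, above 10.8 to 11.3, and pool 1 had 28.4 CPM of Cacna2d4, above 22.2 to 22.6. Without HFD pool 1 the rise of Hcn4 in the immunoprecipitation was 1.09 (adjusted p = 0.00132) and that of Kcnf1 was 1.00 (adjusted p = 1.43e-05).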

How the results depend on the processing

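Numbers of channel genes called, both directions together, stayed within 1.5 times of the reported number under every alternative for HFD in the immunoprecipitation, for the difference between fractions, for immunoprecipitation against input in each mouse group and for genotype in the input. The exceptions were HFD in the input and genotype in the immunoprecipitation. For HFD in the input, 11 calls became 36 with inputs alone in the fit, 5 with the length trend removed, and 4 to 10 when a pool was left out (fewest without HFD pool 3). Of all genes, 6.28% and 5.41% were higher and lower in the reported fit. These shares became 16.8% and 14.3% with inputs alone, 5.30% and 3.78% with the trend removed, and 4.14% and 1.37% without HFD pool 3. For genotype in the immunoprecipitation, 0 calls became 4 with DESeq2, which called 0.688% of all genes higher and 1.07% lower. Scaling by library totals moved the median of all genes from near 0 to 0.20 (NCD controls), 0.17 (IR∆Tan) and 0.11 (HFD controls) for immunoprecipitation against input. Among the genes reported singly, 248 calls were lost and 96 gained of 8441 values over the alternatives, 31 of the losses with the length trend removed.

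Pool numbers were not taken to pair the mouse groups. Same-numbered pools of HFD and NCD controls correlated at -0.296 to -0.0928. Those of IR∆Tan mice and NCD controls correlated at -0.0282 to 0.203, which does not settle whether their numbers pair. With the number as a replicate block, calls were 7 for HFD in the input, where 4.49% of all genes were higher and 3.72% lower. There was 1 call for genotype in the immunoprecipitation (0.170% and 0.229% of all genes), and there were 56 for HFD in the immunoprecipitation (24.4% and 24.7%). With the pool as a block, immunoprecipitation against input gave 78 calls in NCD controls (33.9% and 33.75% of all genes), and no call count moved by over 1.5 times.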
